A study of Mus musculus with 9 samples.

Results

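Lipoxygenases and cyclooxygenases are the enzymes that add oxygen to arachidonic acid and related polyunsaturated fatty acids. The 8 mouse genes Alox5, Alox8, Alox12, Alox12b, Alox12e, Alox15, Ptgs1 and Ptgs2 were taken as the rows of the count table whose Ensembl identifier maps to these symbols, 8 of 49585 genes, and each was found once. They were measured in RNA from 9 spontaneous breast adenocarcinomas of mice. Both groups carried K14-Cre, a recombinase driven by the keratin 14 promoter of basal epithelium. Both were also Trp53wm-R172H/fl, where R172H is an amino acid substitution of p53, and Rosa26LSL CAS9-P2A-EGFP/+, an allele that makes Cas9 in cells where Cre has acted. Tumours were given adeno-associated virus (AAV) on days 0, 3 and 8. The virus was AAV-Control in 3 tumours and, in 6, one labelled AAV-<delta>mut-p53 (AAV-delta-mut-p53 in the text), by which mutant p53 is deleted according to the series title. Collection was at the humane endpoint of each animal, and ages are not stated. Whole tumours were extracted, so RNA of stroma, blood cells and neighbouring tissue is included.

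Arachidonic acid is freed from membrane phospholipids by phospholipases A. Cyclooxygenases turn it into prostaglandin H, which separate synthases convert to prostaglandins, prostacyclin and thromboxane. Lipoxygenases insert oxygen at a fixed carbon and yield hydroperoxides, leukotrienes and lipoxins. Ptgs1 is the constitutive cyclooxygenase of many tissues, and Ptgs2 is induced by cytokines and growth factors and is often raised in inflamed and tumour tissue. Lipoxygenases can also oxidise fatty acids within membranes, which links them to ferroptosis.

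The libraries held 18581545 to 30953250 counts each. RNA of the targeted gene Trp53 was 39.3 to 48.6 CPM (read counts scaled to library size) with the control virus, and 13.1 to 41.5 CPM with AAV-delta-mut-p53. These ranges overlap, and the log2 fold change was -0.42 (FDR = 0.78 by edgeR), so lower Trp53 RNA was not shown at this level. AAV-delta-mut-p53 2 stood apart. Its 8 skeletal muscle genes summed to 38521 CPM, against at most 365 CPM in any other tumour, and its 8 epithelial genes summed to 229 CPM, against 1378 to 5166 CPM elsewhere. AAV-delta-mut-p53 4 and 5 share a number in their titles, and the labels do not say whether they came from 1 animal. Nothing in the labels states that the other tumours came from separate animals, so p-values measure the spread between these samples only.

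Of the 8 genes, 6 passed the filter on low counts and were tested. Among them Alox8 had only 0, 1, 7 and 4 counts in AAV-delta-mut-p53 1, 3, 4 and 6. The other 2 genes, Alox12b and Alox12e, did not pass the filter and were too low to read for a group difference. The log2 fold change (AAV-delta-mut-p53 over AAV-Control) was positive for 5 of the 6 tested genes, beside 55.6% of all tested genes. The 5 were Alox15, Alox12, Ptgs2, Ptgs1 and Alox5, and Alox8 was close to 0. None of the 6 passed a false discovery rate (FDR) of 0.05 in edgeR's quasi-likelihood test, where 0% of all 19606 tested genes did. The FDR of the 6 lay between 0.677 and 0.99. At an unadjusted p under 0.05 there was 1 gene, Ptgs1 (edgeR), on the higher side, where 3.82% of all tested genes were. On the lower side it was 0 of the 6 and 3.26% of all tested genes, and 7.07% in either direction. The median log2 fold change of the 6 was 1.69, beside 0.09 over all tested genes, and 4 of them reached 1, as did 13.6% of all tested genes. None was at or below -1, where 6.14% of all tested genes were. In none of the 6 were the groups free of overlap, which held for 1.47% of tested genes with every AAV-delta-mut-p53 tumour above the controls and for 1.59% with every one below. Within AAV-delta-mut-p53 the 6 tested genes varied widely between single tumours, and the 8 genes did not share 1 tumour with the highest values. Alox5 and Alox15 peaked in AAV-delta-mut-p53 2, Alox8 and Alox12 in number 5, and the other 4 each in a tumour of its own. The peaks of Alox12b and Alox12e rest on only 5 and 34 counts.

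**Figure D1:**
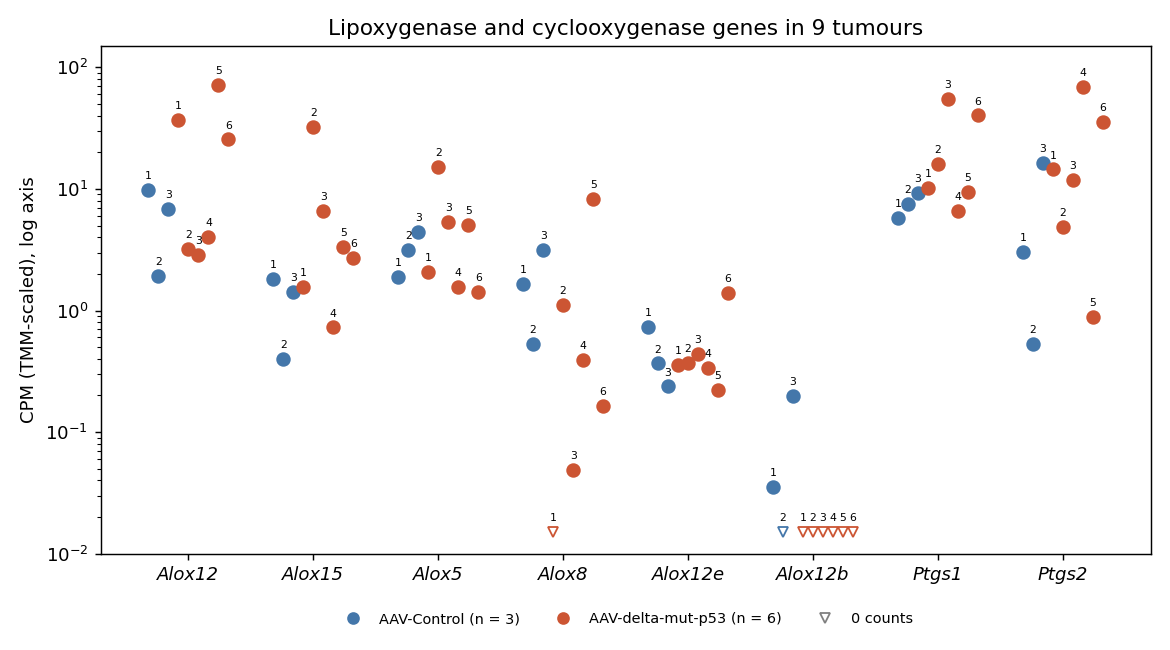
CPM of the 8 genes (log axis) in each of the 9 tumours, with points numbered by replicate, AAV-Control in blue and AAV-delta-mut-p53 in orange; open triangles mark 0 counts. Alox12 peaks in AAV-delta-mut-p53 5 (72.0 CPM), Alox15 and Alox5 in number 2 (32.6 and 15.2 CPM), Ptgs1 in number 3 (55.0 CPM) and Ptgs2 in number 4 (68.8 CPM).

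Alox12 encodes the platelet-type 12S-lipoxygenase, which is also made by some epithelia. The gene (ENSMUSG00000000320.10) lies on the minus strand of chromosome 11, from 70241457 to 70255353 on GRCm38. It held 9.87, 1.93 and 6.81 CPM in AAV-Control 1 to 3, and 36.7, 3.23, 2.88, 4.02, 72.0 and 25.6 CPM in AAV-delta-mut-p53 1 to 6. The latter group thus split into 3 tumours (numbers 1, 5 and 6) above every control and 3 within the control range. Group means were 6.21 ± 4.0 CPM in controls (SD, n = 3) beside 24.1 ± 27.4 CPM (SD, n = 6). The log2 fold change was 1.96 (SE 1.12, 95% confidence interval -0.53 to 4.44, FDR = 0.689 by edgeR). Without AAV-delta-mut-p53 5 the log2 fold change was 1.22. Fewer cells of a type and less RNA per cell cannot be told apart in bulk tumour RNA, here or for the other genes.

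Platelet markers taken as a sum did not run with Alox12. The 9 platelet and megakaryocyte genes summed to 10.2 to 17.4 CPM in controls. In the 3 AAV-delta-mut-p53 tumours high in Alox12 they summed to 8.81, 9.91 and 12.2 CPM, and in number 2, which was low in Alox12, to 53.2 CPM, of which 44.1 CPM came from Pf4, a chemokine of platelet granules. Gp9, Gp6 and Treml1, which are restricted to platelets and their precursors and were the lowest of the list, held at most 0.753 CPM in any tumour. Single genes of the list differed. Itga2b was highest in numbers 6 and 5, at 5.42 and 4.29 CPM. It held 2.43 CPM in number 1 and 2.12 to 3.90 CPM in the remaining tumours. Gp1ba was highest in number 2, at 2.54 CPM. Differentiated keratinocyte genes summed to 14.1, 7.04 and 6.72 CPM in the 3 tumours high in Alox12, against 4.5 to 32.3 CPM in controls.

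Alox15 encodes the leukocyte-type 12/15-lipoxygenase, known in mice from resident macrophages of body cavities and from eosinophils. It is the last of the listed lipoxygenase genes on chromosome 11 (ENSMUSG00000018924.6, minus strand, 70344152 to 70352031). Controls held 1.83, 0.400 and 1.43 CPM. AAV-delta-mut-p53 tumours 1 to 6 held 1.57, 32.6, 6.59, 0.726, 3.32 and 2.69 CPM, so that 4 of 6 were above every control and number 2 was far above all others. On the log2 scale the fold change was 2.70 (SE 1.24, 95% confidence interval -0.04 to 5.43, unadjusted p = 0.0526 and FDR = 0.677 by edgeR) and 1.30 without AAV-delta-mut-p53 2.

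Markers of the cells in which Alox15 is known were high in that same tumour. All 6 genes listed for body-cavity macrophages had their highest value there and summed to 56.0 CPM, against 2.51 to 8.81 CPM in the other 8 tumours. Gata6, the transcription factor of peritoneal macrophages, held 10.8 CPM there and at most 1.27 CPM elsewhere, and Timd4, a receptor for dying cells, 10.9 and at most 1.90 CPM. Of the 8 eosinophil genes, 7 were highest there, and their sum was 84.4 CPM against 1.17 to 6.74 CPM elsewhere. Il5ra, the interleukin 5 receptor, made up 35.9 CPM of it, while the granule gene Epx was at 0.139 CPM and Prg2 at 0.462 CPM. The 10 macrophage and monocyte genes summed to 4192 CPM in that tumour and to 497 to 1688 CPM elsewhere. Muscle RNA was high in the same tumour, as given above. Fibroblast, adipocyte, and B and plasma cell sums were also highest there. They were 7731, 499 and 671 CPM, against at most 3659, 152 and 422 CPM elsewhere. Of the 8 mast cell genes, 7 were highest there, while neutrophil, T cell and endothelial sums peaked in other tumours. High markers there were thus not particular to cells in which Alox15 is known. The part that any of these cells had in the Alox15 value was not tested. In AAV-delta-mut-p53 3, second for Alox15, Siglecf, a lectin of eosinophils, was 5.81 CPM, close to the 5.64 CPM of number 2, but the body-cavity macrophage genes summed to 5.76 CPM, within the control range.

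Alox5 encodes the 5-lipoxygenase that starts leukotriene synthesis in myeloid cells. It lies on chromosome 6 (ENSMUSG00000025701.12, minus strand, 116410077 to 116461178). Its values were 1.90, 3.14 and 4.40 CPM in controls against 2.07, 15.2, 5.32, 1.56, 5.05 and 1.43 CPM in AAV-delta-mut-p53 1 to 6. Numbers 2, 3 and 5 were above every control and numbers 4 and 6 below every one, so the groups overlapped throughout. Its log2 fold change was 0.70 (SE 0.80, 95% confidence interval -1.06 to 2.46, FDR = 0.833 by edgeR). Without AAV-Control 1 it was 0.42, and -0.01 without AAV-delta-mut-p53 2. Of the 8 partner genes of Alox5, 4 were highest in that tumour, Alox5ap and Ltc4s among them, while Lta4h, Mgst2 and Cotl1 peaked in number 6 and Dpep1 in AAV-Control 2. Alox5ap, the membrane protein that presents arachidonic acid to 5-lipoxygenase, held 13.6 CPM there and 0.913 to 3.22 CPM elsewhere. Ltc4s, which joins glutathione to the 5-lipoxygenase product, held 13.0 CPM there and 0.198 to 1.26 CPM elsewhere.

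Alox8 encodes the 8S-lipoxygenase, the mouse counterpart of human ALOX15B, known from skin. It lies on chromosome 11 (ENSMUSG00000020891.11, minus strand, 69183932 to 69197843). Controls held 1.65, 0.534 and 3.13 CPM, from 47, 16 and 79 counts. AAV-delta-mut-p53 1 to 6 held 0, 1.11, 0.0488, 0.391, 8.23 and 0.163 CPM. The 0 counts of number 1 allow up to 3 counts, or 0.135 CPM, an upper limit that covers counting error only. Of the 6, 4 were below every control and number 5 was above every one. The log2 fold change of -0.09 (SE 1.49, 95% confidence interval -3.38 to 3.20, FDR = 0.99 by edgeR) averaged these opposite values. It went to -2.33 without AAV-delta-mut-p53 5 and to 0.60 without AAV-Control 3. The nearest tested gene after Alox8, Gucy2e, a guanylate cyclase of photoreceptors 20274 bases away, was like it in the AAV-delta-mut-p53 group but not among controls. It held 10.3, 12.1 and 5.78 CPM in controls against 0, 0.924, 0.0488, 1.67, 19.9 and 0.0407 CPM in AAV-delta-mut-p53 1 to 6. Both genes were highest in number 5 and at or near 0 in numbers 1, 3 and 6, while among controls AAV-Control 3 was the highest for Alox8 and the lowest for Gucy2e.

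Alox12e encodes an epidermis-type 12S-lipoxygenase (ENSMUSG00000018907.10, chromosome 11, minus strand, 70315610 to 70322628). It had 5 to 34 counts per library, which gives 0.738, 0.367 and 0.238 CPM in controls against 0.360, 0.370, 0.440, 0.335, 0.221 and 1.39 CPM in AAV-delta-mut-p53 tumours. Of the latter, 4 lay within the control range, number 6 above it and number 5 just below it. The gene did not pass the filter on low counts. Without a filter its log2 fold change was 0.18 (FDR = 0.95 by edgeR).

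Alox12b encodes the 12R-lipoxygenase, which works with Aloxe3 to build the skin's lipid barrier. It is the first of the 8 listed genes on chromosome 11 (ENSMUSG00000032807.5, plus strand, 69156989 to 69169792), with Aloxe3 7874 bases before it. It had 1, 0 and 5 counts in AAV-Control 1 to 3 and 0 counts in all 6 AAV-delta-mut-p53 tumours, where 3 counts in each library would be 0.122 to 0.167 CPM. No fold is given for it. AAV-Control 3, with the 5 counts, was also the tumour with the highest sum of differentiated keratinocyte genes, 32.3 CPM against 4.5 to 14.1 CPM elsewhere. In that tumour 8 of the 10 keratinocyte genes had their highest value. Aloxe3, the hydroperoxide isomerase that follows Alox12b in the barrier pathway, was detected in all 9 tumours at 0.147 to 1.83 CPM.

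Ptgs1 (ENSMUSG00000047250.13) lies on chromosome 2, plus strand, 36230426 to 36252272, and Ptgs2 (ENSMUSG00000032487.8) on chromosome 1, plus strand, 150100031 to 150108227. The 250 bases before the start of each gene, and of Alox12, are shown because these 3 genes had the highest mean levels per length and varied over different ranges between tumours. The highest Ptgs2 value was 129 times the lowest, that of Alox12 37.2 times and that of Ptgs1 9.54 times. Sequences are RefSeq's for GRCm38.p6, 5′ to 3′ on the gene's own strand. The Alox12 window ends at the RefSeq start, which is not the GENCODE start given above. Capitals mark every match, on either strand, to 7 motifs that were searched. These were the TATA box TATAAA, the E-box CACGTG, the CRE core TGACG, an NF-kB-like GGGA and CC with any 4 bases between, the AP-1 site TGANTCA, a C/EBP-like TTNCNNAA and the GC box GGGCGG, where overlapping matches run together.
Ptgs2, chr1:150099781-150100030: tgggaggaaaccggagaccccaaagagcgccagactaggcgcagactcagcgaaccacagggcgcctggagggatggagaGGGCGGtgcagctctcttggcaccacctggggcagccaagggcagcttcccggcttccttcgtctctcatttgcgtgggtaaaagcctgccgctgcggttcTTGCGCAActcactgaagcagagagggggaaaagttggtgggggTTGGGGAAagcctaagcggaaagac
Ptgs1, chr2:36230176-36230425: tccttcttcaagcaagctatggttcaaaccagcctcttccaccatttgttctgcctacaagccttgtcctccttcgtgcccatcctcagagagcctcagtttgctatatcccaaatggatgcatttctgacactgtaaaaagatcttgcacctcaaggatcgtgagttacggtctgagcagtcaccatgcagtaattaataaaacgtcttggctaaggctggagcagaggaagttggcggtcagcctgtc
Alox12, chr11:70255371-70255620: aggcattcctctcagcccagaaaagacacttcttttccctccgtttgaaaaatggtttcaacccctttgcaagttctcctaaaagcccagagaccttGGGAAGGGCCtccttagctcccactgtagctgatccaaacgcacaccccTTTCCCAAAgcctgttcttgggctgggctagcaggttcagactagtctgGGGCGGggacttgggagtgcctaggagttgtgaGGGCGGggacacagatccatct
The Ptgs2 window was 61.6% G or C and held matches to the C/EBP-like motif, the first of which reads the same on both strands, and 1 to the GC box. In the Ptgs1 window, which was 48% G or C, none of the 7 motifs had a match in these letters. The Alox12 window was 54% G or C and held a match to the NF-kB-like motif, overlapping matches to the C/EBP-like motif and 2 GC boxes. Of all 32851 windows of this length, 36.8% held the C/EBP-like motif, 32.7% the GC box, 17.6% the NF-kB-like motif, 12.4% the TATA box, 17.8% the CRE core, 6.02% the E-box and 6.75% the AP-1 site. The antisense gene Ptgs2os runs through 183 bases of the Ptgs2 window and had 0 to 31 counts per library. RefSeq windows were found for 7 of the 8 genes, Alox15 being the one without.

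Ptgs1 held 5.76, 7.54 and 9.27 CPM in controls against 10.3, 16.1, 55.0, 6.64, 9.38 and 40.2 CPM in AAV-delta-mut-p53 1 to 6. Numbers 3 and 6 were far above all other tumours, and 5 of the 6 lay above every control, although numbers 1 and 5 did so by little. Means were 7.52 ± 1.75 CPM in controls (SD, n = 3) beside 22.9 ± 19.9 CPM (SD, n = 6). The log2 fold change was 1.61 (SE 0.72, 95% confidence interval 0.02 to 3.20, unadjusted p = 0.0478 and FDR = 0.677 by edgeR). That unadjusted p was 0.133, 0.102 and 0.0782 in edgeR without AAV-Control 1, 2 and 3, and 0.0984 and 0.0871 without AAV-delta-mut-p53 3 and 6. Gm43621, a gene model inside Ptgs1 on the other strand, had 3 to 21 counts per library, against 119 to 1126 for Ptgs1.

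Ptgs2 held 3.02, 0.534 and 16.3 CPM in controls against 14.5, 4.85, 11.9, 68.8, 0.885 and 35.6 CPM in AAV-delta-mut-p53 1 to 6. Only numbers 4 and 6 were above AAV-Control 3, and the other 4 lay within the control range. The 2 tumours whose titles share a number, 4 and 5, were the highest and the lowest of their group, at 1232 and 20 counts. The log2 fold change was 1.78 (SE 1.28, 95% confidence interval -1.05 to 4.61, FDR = 0.73 by edgeR). It was 3.67 without AAV-Control 3 (unadjusted p = 0.0457 and FDR = 0.852 by edgeR) and 1.05 without AAV-delta-mut-p53 4.

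The 6 listed cytokines and chemokines known to accompany Ptgs2 induction (Il1a, Il1b, Tnf, Il6, Cxcl1 and Cxcl2) were compared with it as a sum, most of which is Cxcl1 and Il1b. The sum was 46.5 CPM in AAV-Control 3 and 60.5 to 113 CPM in AAV-delta-mut-p53 1, 3, 4 and 6, where Ptgs2 was at least 11.9 CPM. It was 4.94 to 10.4 CPM in the 4 tumours with Ptgs2 at or below 4.85 CPM. Il6 did not divide the tumours in this way, being 0.195 CPM in AAV-delta-mut-p53 3, below the 0.832 CPM of number 2. All 6 had positive log2 fold changes, as had 55.6% of all tested genes, with 0 past the FDR threshold. Il1b and Cxcl2 were at an unadjusted p under 0.05, where 3.82% of all tested genes were on the higher side (FDR = 0.677 for both by edgeR). Il1b, the cytokine interleukin 1 beta, held 1.76, 0.500 and 7.29 CPM in controls against 29.9, 3.56, 17.8, 27.7, 2.52 and 26.1 CPM in AAV-delta-mut-p53 1 to 6. The 9 neutrophil genes summed to 61.4 CPM in AAV-Control 3 and 15.0 and 5.34 CPM in the other controls. They summed to 40.8 to 208 CPM in AAV-delta-mut-p53 tumours, with 56.4 CPM in number 5, where Ptgs2 was lowest of that group. Interferon-stimulated genes did not follow Ptgs2 in every tumour: in AAV-delta-mut-p53 1 they summed to 87.6 CPM, and to 902 CPM in number 2.

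**Figure D2:**
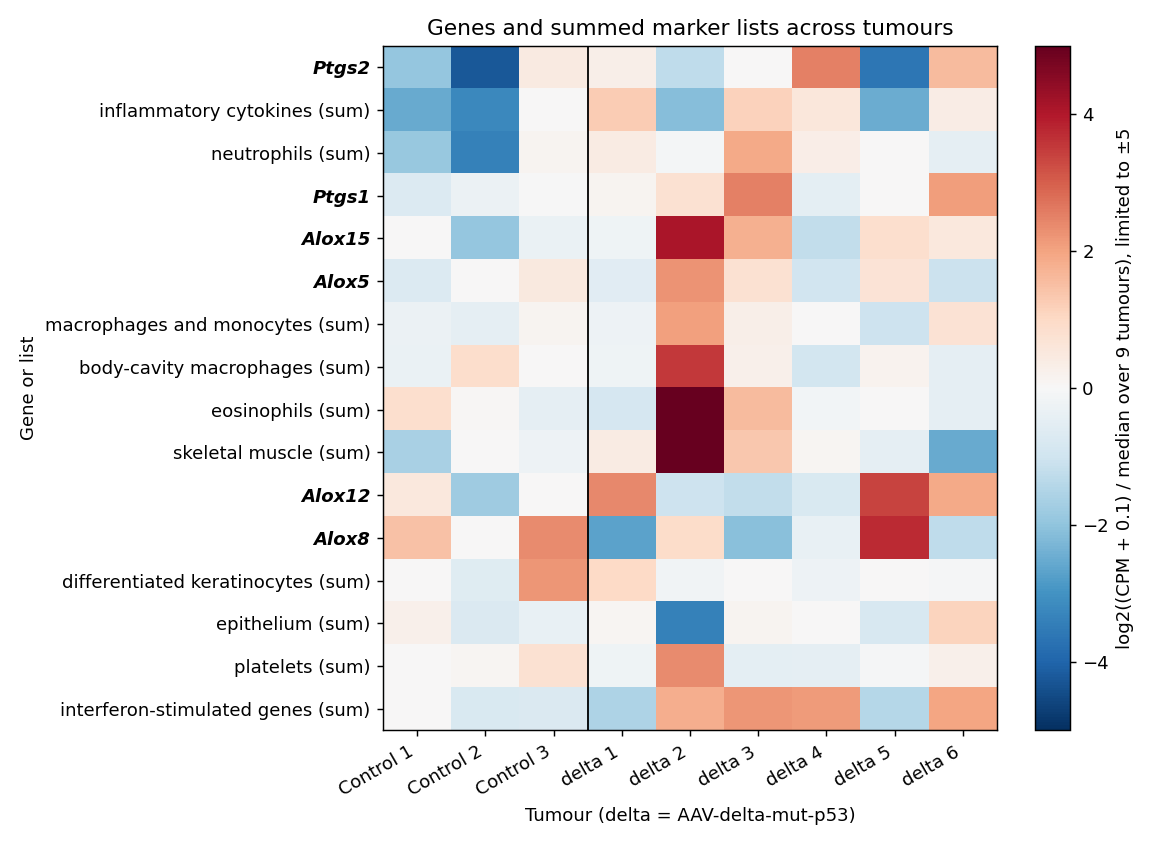
Heat map of 6 genes (bold) and 10 summed marker lists in 9 tumours; colour is log2 of CPM + 0.1 relative to the median over tumours, limited to ±5, and the line divides AAV-Control from AAV-delta-mut-p53. Ptgs2 and the cytokine sum are both low in AAV-Control 1 and 2 and in AAV-delta-mut-p53 2 and 5, while Alox15, Alox5, macrophage, eosinophil and muscle rows are all highest in AAV-delta-mut-p53 2.

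Levels were next divided by exon length, in CPM per kb, so that genes could be set against each other. Averaged over all 9 tumours, the order was Ptgs1 (4.58), Alox12 (4.43), Ptgs2 (3.79), Alox15 (2.31), Alox5 (1.08), Alox8 (0.476), Alox12e (0.175) and Alox12b (0.0107 CPM per kb). This order is a description of unequal groups, and the ranges of neighbours over the tumours overlap throughout. The last pair overlapped by little, with Alox12b at most 0.0815 and Alox12e at least 0.0783 CPM per kb. In controls alone Alox5 (0.766 CPM per kb) was above Alox8 (0.498) and Alox15 (0.496), and the mean of Alox15 over all tumours includes 13.3 CPM per kb in AAV-delta-mut-p53 2. Alox12 was the leading lipoxygenase in 6 tumours, from 0.984 CPM per kb in AAV-delta-mut-p53 4 to 17.6 CPM per kb in number 5. Alox15 led in AAV-delta-mut-p53 2 and 3 (13.3 and 2.69 CPM per kb), each time with Alox5 second (3.69 and 1.30 CPM per kb). Alox5 led only in AAV-Control 2, at 0.764 CPM per kb, the tumour with the lowest lipoxygenase total (1.68 CPM per kb). That total was 22.6 CPM per kb in AAV-delta-mut-p53 5 and 18.2 in number 2, and it rested on Alox12 in the former and on Alox15 in the latter.

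Ptgs2 exceeded Ptgs1 per kb in 3 tumours. The ratio of Ptgs2 to Ptgs1 was 8.78 in AAV-delta-mut-p53 4 (95% Wilson interval 7.28 to 10.6), 1.49 in AAV-Control 3 (1.27 to 1.75) and 1.20 in AAV-delta-mut-p53 1 (1.01 to 1.42). These intervals cover counting error only. In AAV-delta-mut-p53 6, where both genes were high, it was 0.75 (0.685 to 0.822). It was lowest in AAV-Control 2 at 0.06 (0.0364 to 0.0992) and in AAV-delta-mut-p53 5 at 0.08 (0.0508 to 0.126). AAV-delta-mut-p53 3, with the most Ptgs1, had a ratio of 0.183. High cyclooxygenase RNA was thus Ptgs1 in number 3, Ptgs2 in number 4 and both in number 6.

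**Figure D3:**
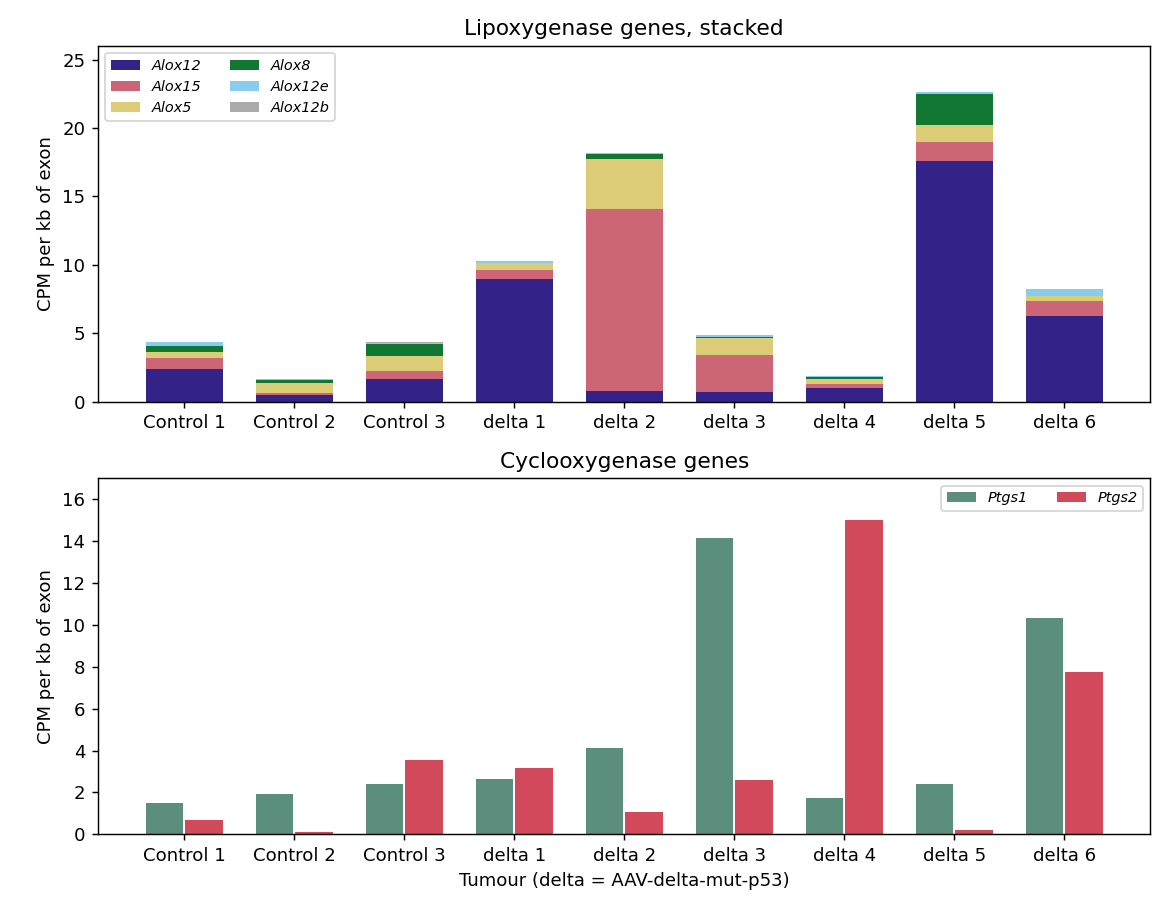
CPM per kb of exon in each tumour: the 6 lipoxygenase genes stacked (top) and Ptgs1 beside Ptgs2 (bottom). Alox12 makes up most of the bar in AAV-delta-mut-p53 1, 5 and 6 and Alox15 in number 2, and Ptgs2 is the taller cyclooxygenase bar in AAV-Control 3 and AAV-delta-mut-p53 1 and 4.

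The dependence on single tumours followed these patterns. Leaving out 1 tumour at a time gave log2 fold changes of 1.14 to 1.81 for Ptgs1, 1.22 to 2.46 for Alox12, 1.30 to 3.09 for Alox15 and 1.05 to 3.67 for Ptgs2, positive in all 9 cases for each gene. For Alox5 they ran from -0.01 to 1.01 and for Alox8 from -2.33 to 0.60. FDR did not fall under 0.05 for any of the 6 genes in these fits.

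**Figure D4:**
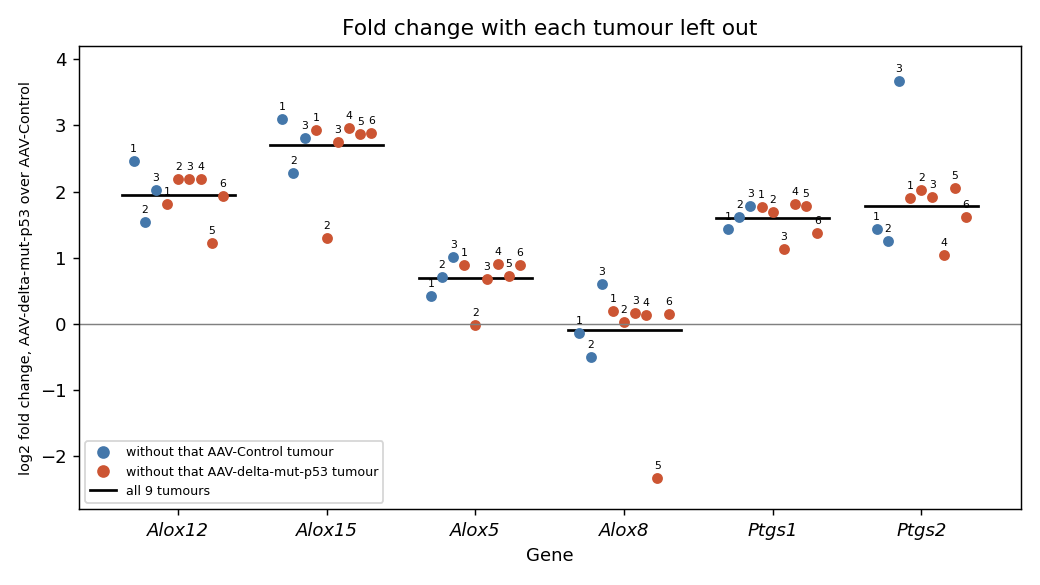
Log2 fold change of the 6 tested genes with all 9 tumours (black line) and with each tumour left out (points, numbered by replicate; blue without that AAV-Control tumour, orange without that AAV-delta-mut-p53 tumour). Points of Ptgs1, Alox12, Alox15 and Ptgs2 all lie above 0, the lowest being 1.05 for Ptgs2, while Alox8 is at -2.33 without AAV-delta-mut-p53 5.

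The rest of the pathway was taken from 7 lists with 59 genes, of which 48 were tested. Their log2 fold changes were positive for 36 and negative for 12, beside 55.6% positive of all tested genes. The median was 0.63 beside 0.09 over all tested genes. None of the 48 passed the FDR threshold. At an unadjusted p under 0.05 there were 6 on the higher side, 12.5% of the 48 against 3.82% of all tested genes, and 0 on the lower side. Leaving out AAV-Control 1 made that count 1, and leaving out AAV-Control 2 made it 2. Without AAV-delta-mut-p53 2, 32 of 44 were positive with a median of 0.32, and 7 were at an unadjusted p under 0.05 on the higher side and 1 on the lower. Of the 48 genes, 18 had their highest value in AAV-delta-mut-p53 2 and 13 in number 6, 37.5% and 27.1% of them, where these tumours held the highest value of 19.9% and 12.8% of all tested genes.

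Upstream of the enzymes, 10 of 17 phospholipase genes were tested, 9 positive and 1 negative, beside 55.6% positive of all tested genes. Pla2g4a, the cytosolic phospholipase that releases most arachidonic acid for signalling, is the nearest tested gene before Ptgs2, 138741 bases away. It held 38.6, 15.0 and 60.6 CPM in controls against 15.2, 36.8, 47.5, 33.8, 16.2 and 110 CPM in AAV-delta-mut-p53 1 to 6, a log2 fold change of 0.18 (FDR = 0.952 by edgeR). Number 4, the highest for Ptgs2, was thus within the control range for Pla2g4a. Pla2g4f, a related phospholipase, was at an unadjusted p under 0.05 (FDR = 0.677 by edgeR) and reached 6.64 CPM in number 6. Mgll, a lipase that frees arachidonic acid from an endocannabinoid, had the highest mean of the list, 41.5 ± 8.30 CPM in controls (SD, n = 3) beside 72.1 ± 49.0 CPM (SD, n = 6). Pla2g2a had 0 counts in every tumour.

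On the leukotriene side, 7 of 8 partner genes were positive and 1 negative, beside 55.6% positive of all tested genes. At an unadjusted p under 0.05 by edgeR there were 2, where 3.82% of all tested genes were on the higher side. Mgst2, a microsomal glutathione transferase that can make leukotriene C, held 0.562, 0.167 and 0.515 CPM in controls. It held 6.79, 2.49, 9.57, 6.03, 0.177 and 18.9 CPM in AAV-delta-mut-p53 1 to 6, so 5 of 6 were above every control (log2 fold change 4.13, SE 1.21, FDR = 0.677 by edgeR). Lta4h, the hydrolase that makes leukotriene B, held 46.4 ± 10.4 CPM in controls (SD, n = 3) beside 74.5 ± 18.3 CPM (SD, n = 6), or 0.68 as log2 fold change (SE 0.30, FDR = 0.677 by edgeR). Of the 3 other lipoxygenase-like and hydroperoxide genes, 2 were positive and 1 negative. Gpx4, which reduces lipid hydroperoxides made by lipoxygenases, held 85.3 ± 12.2 and 132 ± 52.7 CPM (SD, n = 3 and n = 6; FDR = 0.682 by edgeR).

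Among receptors for leukotrienes and lipoxins, 4 of 6 tested genes were positive and 2 negative, beside 55.6% positive of all tested genes. Only 1 gene of the 48 had groups that did not overlap, where 1.47% of all tested genes were separate on the higher side. That gene was Fpr2, a receptor for lipoxin and formyl peptides on phagocytes. It held 0.386, 0.434 and 0.396 CPM in controls against 1.30, 2.49, 2.05, 1, 0.443 and 1.18 CPM in AAV-delta-mut-p53 1 to 6 (log2 fold change 1.79, SE 0.62, FDR = 0.677 by edgeR), with number 5 just above the controls. The cysteinyl leukotriene receptor genes Cysltr1 and Cysltr2 stood out in AAV-delta-mut-p53 2. They held 65.7 and 40.2 CPM there, and at most 11.3 and 1.02 CPM in any other tumour. That tumour, highest for Alox5, Alox5ap and Ltc4s, was therefore also highest for both of these receptors. It held the highest value of 19.9% of all tested genes. Other receptors of the list peaked elsewhere, Ltb4r1 and Ltb4r2 in AAV-Control 2 (1.67 and 1.30 CPM) and Cmklr1 in AAV-delta-mut-p53 5 (63.2 CPM).

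Downstream of the cyclooxygenases, 6 of 9 prostanoid synthase genes were positive and 3 negative, beside 55.6% positive of all tested genes. Ptgds, which makes prostaglandin D, held 0.211, 0.967 and 1.66 CPM in controls against 3.42, 0.970, 2.88, 11.6, 3.05 and 116 CPM in AAV-delta-mut-p53 1 to 6. A log2 fold change of 4.60 (SE 1.76, FDR = 0.677 by edgeR) includes the 116 CPM of number 6. Ptges, the inducible prostaglandin E synthase often paired with Ptgs2, did not share the Ptgs2 pattern. It held 63.1 CPM in AAV-Control 2, the lowest tumour for Ptgs2, and 10.4 CPM in AAV-delta-mut-p53 4, the highest. Ptges3, a co-chaperone with prostaglandin E synthase activity and the most abundant of the list, held 85.4 ± 16.2 and 88.4 ± 32.6 CPM (SD, n = 3 and n = 6). Ptgis and Tbxas1, the prostacyclin and thromboxane synthases, were highest in AAV-delta-mut-p53 2, at 43.7 and 45.6 CPM, against at most 3.58 and 11.1 CPM elsewhere.

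Of 5 genes for prostanoid transport and breakdown, 3 were positive and 2 negative, beside 55.6% positive of all tested genes. Hpgd, the dehydrogenase that inactivates prostaglandins, was highest in AAV-delta-mut-p53 6, at 152 CPM, with at most 25.5 CPM in any other tumour. Slco2a1, the prostaglandin importer, had the highest mean of this list at 86.7 ± 33.9 and 81.0 ± 77.6 CPM (SD, n = 3 and n = 6). Of 7 tested prostanoid receptor genes, 5 were positive and 2 negative, beside the same share of all tested genes. Ptger2, a receptor for prostaglandin E, held 0.316, 0.200 and 0.792 CPM in controls against 6.61, 10.03, 7.47, 2.34, 0.177 and 1.26 CPM in AAV-delta-mut-p53 1 to 6, 5 of 6 above every control (log2 fold change 3.40, SE 1.16, FDR = 0.677 by edgeR). Ptger4, the other receptor of that ligand coupled to cyclic AMP, reached 61.8 CPM in number 6, beside 6.65 to 20.5 CPM in the remaining tumours. Number 6 was thus high in Ptgs1 and Ptgs2 and highest in Ptgds, Hpgd and Ptger4.

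**Figure D5:**
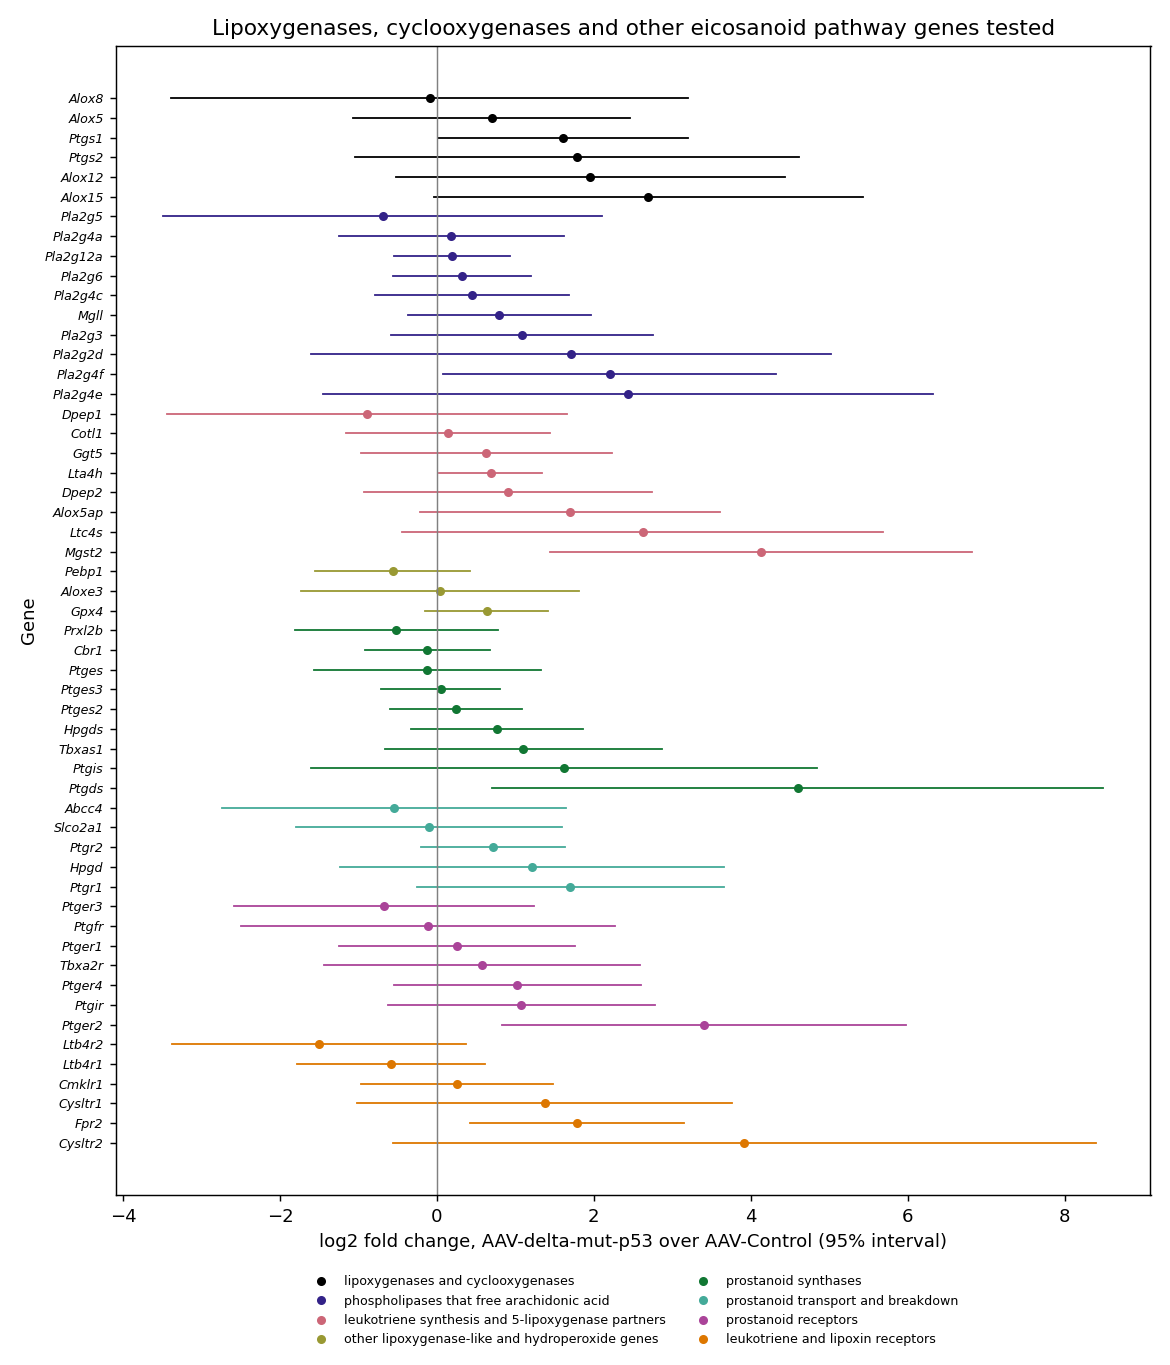
Log2 fold change with 95% interval for the 6 tested lipoxygenase and cyclooxygenase genes (black) and 48 other pathway genes, coloured by role. Most points lie right of 0 (5 of 6 and 36 of 48, beside 55.6% of all tested genes), and most intervals include 0.

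Signalling that is known to act on Alox15 was examined as well. Of 9 genes of type 2 cytokine signalling, 8 were tested and all 8 had positive log2 fold changes, as had 55.6% of all tested genes. At an unadjusted p under 0.05 there was 1, beside 3.82% of all tested genes on the higher side, too few to read as a result about the list, and 0 passed the FDR threshold. Stat6, the transcription factor downstream of interleukin 4 that induces Alox15, was 57.5 ± 12.1 CPM in controls (SD, n = 3) beside 110 ± 20.3 CPM (SD, n = 6). Its groups did not overlap, with 69.6, 57.4 and 45.3 CPM in controls against 82.6 to 140 CPM with AAV-delta-mut-p53 (log2 fold change 0.94, SE 0.27, FDR = 0.677 by edgeR). Every AAV-delta-mut-p53 tumour was above every control for 1.47% of all tested genes. Stat6 did not run with Alox15 in every tumour. In numbers 1 and 4 it was 105 and 95.7 CPM, with Alox15 within the control range at 1.57 and 0.726 CPM. Il4ra, the receptor for interleukin 4, was 24.1 to 98.1 CPM in all tumours but AAV-delta-mut-p53 2, where it was 477 CPM. Il4 itself was 0.99 to 2.17 CPM and Il13 at most 0.0815 CPM.

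A group of 5 of the 8 genes share a 1195 kb stretch of chromosome 11 with Trp53. Alox12b and Alox8 lie 411 and 383 kb before Trp53, and Alox12, Alox12e and Alox15 lie 650, 724 and 752 kb after it. Besides the listed lipoxygenases, the stretch holds 54 tested protein-coding genes whose mean reaches 1 CPM, Trp53 itself among them. Of these, 44 had a positive log2 fold change, beside 55.6% of all tested genes, and their median was 0.42. Neighbouring genes are not independent of each other, so this is a description of the stretch. By tumour, the median deviation from each gene's mean (log2 CPM) was 0.13, -0.32 and -0.36 in the control tumours, against -0.33, 0.19, 0.40, 0.14, 0.04 and 0.12 in AAV-delta-mut-p53 1 to 6. AAV-delta-mut-p53 1, high in Alox12, was thus among the lowest for the stretch, and number 5, the highest for Alox12 and Alox8, was near 0.

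The genes with the most similar profile were sought among 14963 tested protein-coding genes, by the root mean square difference of log2 CPM over the 9 tumours after centring. Small values mean likeness, and the spread of the gene itself is given for scale. Closest to Ptgs2 (spread 2.15) were Hp (0.85), an acute-phase protein, Il1b (0.90) and Sftpd (0.95), a collectin. Closest to Ptgs1 (spread 1.08) were Tcn2 (0.36), a vitamin B12 carrier, Slc29a3 (0.45), a nucleoside transporter, and Socs2 (0.45), a cytokine signalling inhibitor. Closest to Alox5 (spread 1.01) were Prg4 (0.38), Gnal (0.38) and Mctp1 (0.48). Prg4 is on the body-cavity macrophage list, whose other genes were not among these 3. Like Alox5, all 3 were highest in AAV-delta-mut-p53 2, at 9.98, 14.2 and 20.4 CPM. That tumour held the highest value of 19.9% of all tested genes. Alox15 (spread 1.67) was nearest to Fbxw10 (0.57), Hepacam2 (0.68) and Nlrp12 (0.69), all highest in that same tumour. Alox8 (spread 2.04) was nearest to Raet1e (0.50), Fgfr4 (0.56) and Pclo (0.77), all highest in AAV-delta-mut-p53 5, as was Alox8. Nearest to Alox12 (spread 1.70) were Fbxo43 (0.77), 4930563M21Rik (0.84) and 2810459M11Rik (0.89). Beyond the filter on low counts no minimum level was set for the genes compared, and some of these profiles rest on few counts. Over the 9 tumours Fbxo43 held 0.0924 to 1.87 CPM and 2810459M11Rik 0 to 5.18 CPM. Nlrp12 held 0.0558 to 2.68 CPM and Sftpd 0 to 6.75 CPM.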

How the data were processed

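Strand-specific total RNA libraries of 9 flash-frozen mouse breast tumours were sequenced, per the labels' protocols. The authors deposited raw read counts per gene in 1 table, with 1 column per tumour. Per the submitters' processing notes, STAR 2.6.0b, DESeq2 and GRCm38 were used, in steps that are not described. The sources used here do not name the counting program, its strand setting or the annotation. Columns were tied to samples by title. Symbols were found for 49326 of 49585 identifiers, and positions and exon lengths come from GENCODE mouse release M21 on GRCm38.

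The test of the counts was edgeR's (version 4.0.16, R 4.3.3; quasi-likelihood, TMM factors, filterByExpr with a minimum count of 10, 2-sided, no covariate, Benjamini-Hochberg over all 19606 tested genes). CPM use TMM-scaled library sizes, and per-length levels divide CPM by the union of exons. Log2 CPM for likeness use a prior count of 2. In simulated counts with these spreads, over 19156 genes, edgeR recovered 0, 7, 22 and 24 of 50 genes changed by 1, 2, 3 and 4 on the log2 scale, with 3 calls among unchanged genes. No pair of libraries was alike within sampling noise (smallest chi-square per degree of freedom 104).

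The genes and 25 lists were chosen with earlier results of these data known. Named pathway genes are those at p under 0.05 (up to 4 per list) and the most abundant of each list. Pathway and marker genes outside that rule, Alox5ap, Ltc4s, Pla2g4a, Ptges, Hpgd, Ptgis, Tbxas1, Cysltr1, Cysltr2, Il4 and Il13 among them, were picked for their role or after their values were seen. Alternatives were other scaling, DESeq2 1.42.0, limma 3.58.1 voom, other filters, the 2 samples with a shared title number summed, and each tumour left out.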

Additional observations from a re-analysis of the deposited data

Results flagged for a closer look

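The 6 AAV-delta-mut-p53 tumours were searched for 1 tumour far from the other 5, by Dixon's gap test at the 95% level, in 29 genes (the lipoxygenase and cyclooxygenase genes without Alox12b, which had 0 counts in all 6, and the named pathway and response genes, some of them chosen by p in these tumours). In normally distributed values chance flags about 1 in 20 groups. The rate for CPM, which are skewed to high values, was not measured, and all 9 genes flagged had 1 high tumour. AAV-delta-mut-p53 2 stood out for Alox5 (15.2 CPM), Alox15 (32.6 CPM) and Il4ra (477 CPM). AAV-delta-mut-p53 5 stood out for Alox8 (8.23 CPM). AAV-delta-mut-p53 6 stood out for Alox12e (1.39 CPM, from 34 counts), Pla2g4f (6.64 CPM), Cotl1 (342 CPM), Ptgds (116 CPM) and Ptger4 (61.8 CPM). Cotl1 encodes a protein that binds 5-lipoxygenase. The 3 control tumours are too few for this test.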

How the results depend on the processing

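The direction of Alox12, Alox15, Ptgs1 and Ptgs2 was the same in all 16 alternatives, with ranges of log2 fold change of 1.14 to 2.46, 1.02 to 3.09, 1.14 to 1.81 and 1.05 to 3.67. With 1 tumour left out Alox5 ran from -0.013 to 1.01 and Alox8 from -2.33 to 0.60. Alox5 reversed in 1 of 16, to -0.013 without AAV-delta-mut-p53 2. Alox8 reversed in 6 of 15, to 0.60 without AAV-Control 3 and to 0.19, 0.02, 0.16, 0.14 and 0.15 without AAV-delta-mut-p53 1, 2, 3, 4 and 6, and it was not kept by the stricter filter. With limma voom and sample quality weights Alox12 was 1.14, Alox15 1.02, Alox5 0.28 and Alox8 -2.30; the cause was not tested. No member passed an FDR of 0.05 in any alternative, the smallest being 0.267 for Alox15 in DESeq2. Over all genes DESeq2 called 102 and the other alternatives 0. The count at an unadjusted p under 0.05 was 1387, and 2316 in DESeq2 and 2443 with no filter, both among more genes tested. Limma voom gave 2038 among the same 19606 genes, and summing the 2 samples with a shared title number gave 1729. With 1 tumour left out that count was 874 to 2009, lowest without AAV-Control 2. The count of lipoxygenase and cyclooxygenase genes at that p was 0 to 3 instead of 1, with 3 under no filter: Alox15 and Ptgs1 higher, and Alox12b lower from 6 counts against 0. The count of pathway genes at that p, 6 with all tumours, was 2 with the stricter filter, which tests fewer genes, and 1 to 8 with 1 tumour left out. No paired analysis was possible because the labels give no replicate numbers shared by the groups. Depth limits Alox12b, Alox12e and the low Alox8 values, which rest on few or 0 counts.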
